A study of Homo sapiens with 15 samples.

Results

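The genes described here are 9 members of the human beta-1,4-glycosyltransferase family, namely the galactosyltransferase genes B4GALT1 to B4GALT6 and the N-acetylgalactosaminyltransferase genes B4GALNT1, B4GALNT3 and B4GALNT4. They were taken by symbol from a table of 59608 genes, and all 9 passed the filter on low values that left 13561 genes for testing. MDA-MB-231, a cell line from a triple-negative breast carcinoma, was grown as a 2D culture in serum and exposed for 6 h to 0.1% DMSO or to 0.5, 5, 50 or 500 nM ZJ-101, a synthetic compound modelled on superstolide A, a sponge metabolite, with a simpler structure. Each of the 5 groups had 3 dishes, each sequenced as 1 library of poly-A RNA, and the groups shared the cell line, the medium and the time. All results therefore come from 1 cell line at 1 time point.

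Beta-1,4-galactosyltransferases sit in the Golgi membrane and move galactose from UDP-galactose onto a terminal N-acetylglucosamine (GlcNAc), which gives N-acetyllactosamine (LacNAc), or onto glucosylceramide, which gives lactosylceramide. LacNAc is the backbone on which sialic acid, fucose and poly-LacNAc chains of glycoproteins are built, and lactosylceramide is the precursor of most complex glycosphingolipids. The B4GALNT enzymes move N-acetylgalactosamine (GalNAc) instead, either onto glycoprotein GlcNAc to form LacdiNAc or onto gangliosides to form GM2 and GD2.

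In outline, 6 of the 9 genes fell at 500 nM and 0 rose, where 10.1% of all genes tested fell and 7.69% rose, and the doses at which they first passed the test differed. B4GALT1 kept most of its level up to 5 nM, fell to 56.5% of the DMSO mean at 50 nM and stood at 54.8% at 500 nM. B4GALT5 was already at 82.8% at 0.5 nM (88.7% without replicate 2 of that group) and stayed between 77.2% and 80.3% from 5 nM upward. B4GALNT3 stood at 69.2% at 0.5 nM, at 80.0% at 50 nM and at 50.6% at 500 nM. B4GALT3 had smaller falls at 50 and 500 nM. B4GALT6 and B4GALT2 passed only at 500 nM, with calls lost in 6 and 12 of 24 alternative analyses. The first calls of B4GALT5 and B4GALNT3, both at 0.5 nM, were lost in 14 and 4 of 24. Those of B4GALT1 at 5 nM and B4GALT3 at 50 nM were lost in 9 and 4 of 24. B4GALT4, B4GALNT1 and B4GALNT4 did not pass the test at any dose.

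Values are normalized counts, that is, the reads assigned to a gene divided by the size factor of the library, and errors are SD with n = 3. Libraries held 12415519 to 15284762 reads on genes. Replicate 2 of the 0.5 nM group stood apart from its group, with a chi-square of 11.1 and 16.5 per degree of freedom in its pairs against 2.04 to 6.27 in every other pair of replicates, so results at 0.5 nM that it moved by more than 1.5 times, and the genes called there, are also given without it. Of the genes used to check the cell line, VIM, CD44, CAV1 and KRT18 were high, with VIM at 13433 or more normalized counts in every library. ESR1 had a median of 0, PTPRC was at 3.53 or below and ALB at 1.77 or below. SPARC, listed as a mesenchymal marker, was at 6.18 or below, while CDH1 at 107 to 206, GATA3 at 122 to 168, EPCAM at 266 to 320 and PECAM1 at 201 to 321 normalized counts, listed as absent, as low or as markers of other cells, were above 0 in every library. So were PGR at 5.37 to 17.3 and PMEL at 11.3 to 27.4, of the same lists. In bulk RNA a lower value can come from fewer expressing cells or from less RNA per cell, and these cannot be told apart.

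B4GALT1 and B4GALT5 carried most of the galactosyltransferase reads, so the sequences just upstream of their start sites are shown here. They are the 250 bases before a RefSeq start site on GRCh38.p14, on the minus strand of chr9:33167337-33167586 and of chr20:49713879-49714128. The end of the B4GALT1 window lies in the first exon of the GENCODE model. Capitals mark the GC box, GGGCGG or its reverse complement CCGCCC, the motif read by Sp1-type factors.
B4GALT1: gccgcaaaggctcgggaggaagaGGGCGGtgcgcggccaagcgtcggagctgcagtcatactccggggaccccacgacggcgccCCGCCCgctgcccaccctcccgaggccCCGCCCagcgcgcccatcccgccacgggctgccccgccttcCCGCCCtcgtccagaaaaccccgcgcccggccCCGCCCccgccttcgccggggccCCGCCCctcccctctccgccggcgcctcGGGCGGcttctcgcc
B4GALT5: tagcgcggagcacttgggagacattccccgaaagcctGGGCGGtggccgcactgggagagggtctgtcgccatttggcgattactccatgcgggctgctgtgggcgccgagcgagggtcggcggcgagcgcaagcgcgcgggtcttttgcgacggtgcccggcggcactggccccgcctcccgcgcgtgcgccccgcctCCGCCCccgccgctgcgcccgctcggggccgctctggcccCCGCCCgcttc
RefSeq gives 2 start sites for B4GALT1. The window shown held 7 GC boxes and was 80.0% G or C, the overlapping window of the other start site (chr9:33167160-33167409) held 6 and was 78.0% G or C, and the B4GALT5 window held 3 and was 75.6% G or C. A GC box on either strand was found in 42.6% of the 35116 RefSeq windows of this length. Windows were on hand for 6 of the 9 genes (B4GALT1 to B4GALT5 and B4GALNT4). GC boxes numbered 2 and 0 in the windows of B4GALT2 and 0 and 2 in those of B4GALT3. The window of B4GALT4 held 3 and that of B4GALNT4 held 5, and neither gene passed the test at any dose. A Golgi stress element (ACGTGGC, in 2.78% of all windows) was matched in 1 of the B4GALT2 windows, where it overlapped an E-box (CACGTG, in 6.34%), and in no other member window. The CCAAT box (CCAAT, in 32.0%) was matched in the windows of B4GALT4 and B4GALNT4. The heat-shock element pair (GAANNTTC, in 5.78%) was matched in none of the member windows. These are matches of letters within a window and say nothing about binding.

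In the DMSO libraries, levels were set side by side per kb of the main annotated transcript (MANE Select, GENCODE 44). B4GALT5, which with B4GALT6 makes lactosylceramide, was the highest at 940 ± 30.7 normalized counts per kb. B4GALT1, the main enzyme of LacNAc on glycoproteins and, with alpha-lactalbumin, of lactose in milk, followed at 646 ± 19.5. B4GALT3 at 433 ± 13.4 and B4GALT2 at 421 ± 20.4, both LacNAc enzymes of glycoproteins, did not differ beyond their spread. B4GALT6 at 84.7 ± 5.78 and B4GALT4 at 72.4 ± 4.63, the latter known for galactose on sulfated GlcNAc, came next and were separated in these 3 libraries. B4GALNT3, which makes LacdiNAc, stood at 51.6 ± 3.64 normalized counts per kb. B4GALNT4, its closest relative, at 16.9 ± 0.922, and B4GALNT1, the GM2 and GD2 synthase, at 13.0 ± 2.71, overlapped. The order below B4GALT1 depended on the length used. Per kb of all exons together B4GALT3 stood at 215 and B4GALT2 at 169, and B4GALNT3 at 38.9 came before B4GALT4 at 23.2.

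The level of B4GALT1 turned on the dose between 5 and 50 nM. The gene lies on the minus strand of chr9:33104082-33167356 and its main transcript has 6 exons. DMSO libraries held 2771, 2713 and 2610 normalized counts, the 0.5 nM libraries 2463, 2355 and 2728, and the 5 nM libraries 2298, 2295 and 2420. The 50 nM libraries held 1487, 1552 and 1537 and the 500 nM libraries 1486, 1524 and 1430. Every library at 50 and 500 nM was thus below every library at 5 nM, the 5 nM libraries were below all DMSO libraries, and the 0.5 nM libraries overlapped DMSO. The means were 2698 ± 81.5 in DMSO, 2515 ± 192 at 0.5 nM, 2338 ± 71.1 at 5 nM, 1525 ± 34.0 at 50 nM and 1480 ± 47.4 at 500 nM. On the log2(normalized count + 1) scale, used for all fold changes here, B4GALT1 fell by 0.82 at 50 nM (SE 0.05, limma adjusted p = 4.2e-09) and by 0.87 at 500 nM (SE 0.05, limma adjusted p = 6.5e-10). At 5 nM it fell by 0.21 (limma adjusted p = 0.039), a call that was lost in 9 of 24 alternative analyses, each DMSO library left out among them (adjusted p up to 0.18). At 0.5 nM the difference was -0.10, with a 95% interval of -0.21 to 0.00 and an adjusted p of 0.36 by limma, and it was -0.06 (limma adjusted p = 0.69) without replicate 2 of that group.

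**Figure D1:**
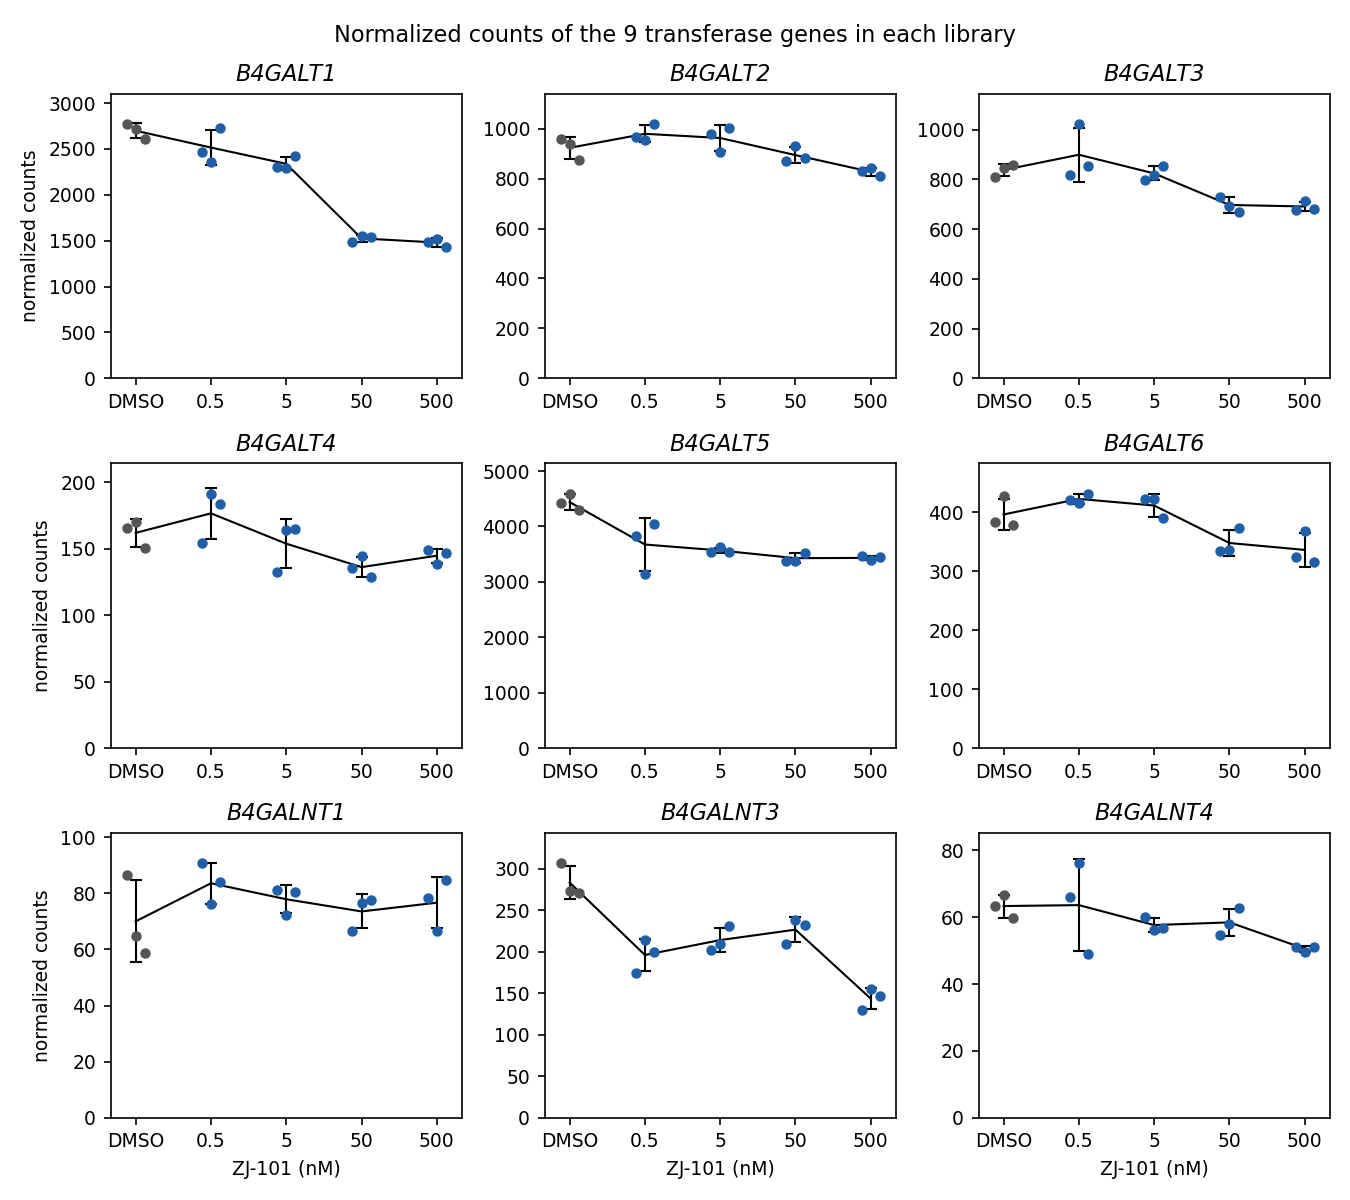
Normalized counts of each gene (vertical axes, each from 0) against ZJ-101 dose in nM (horizontal axes), with points for the 3 libraries of a group (grey DMSO, blue treated) and a black line with bars for the mean and SD. B4GALT1 drops from a mean of 2338 at 5 nM to 1525 at 50 nM, B4GALT5 is lower from 0.5 nM on, and B4GALNT3 has its lowest mean, 144, at 500 nM.

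B4GALT1 had smaller differences from DMSO at 0.5 and 5 nM, and among its steps between neighbouring treated doses only 1 passed. From 5 to 50 nM it fell by 0.62 on the log2 scale (SE 0.05, limma adjusted p = 2.9e-07). The step from 0.5 to 5 nM was -0.10 (95% interval -0.21 to 0.00, limma adjusted p = 0.65) and the step from 50 to 500 nM was -0.04 (95% interval -0.15 to 0.06, limma adjusted p = 0.78). The rise in dose from 50 to 500 nM thus moved B4GALT1 by less than the test could tell from the spread between dishes.

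B4GALT5 was lower at every dose, with little difference between the doses from 5 nM upward. It lies on the minus strand of chr20:49632945-49713878, in 9 exons. DMSO libraries held 4427, 4590 and 4301 normalized counts, and the 0.5 nM libraries 3833, 3144 and 4044. The 5 nM libraries held 3533, 3628 and 3538, the 50 nM libraries 3380, 3374 and 3528, and the 500 nM libraries 3470, 3386 and 3441. All 12 treated libraries were below all 3 DMSO libraries. The lowest was replicate 2 of the 0.5 nM group, the library that stood apart. B4GALT5 fell by 0.28 at 0.5 nM (SE 0.06, limma adjusted p = 0.040), 0.32 at 5 nM (0.012), 0.37 at 50 nM (8.7e-04) and 0.37 at 500 nM (4.0e-04, all limma adjusted p). Without replicate 2 of the 0.5 nM group the fall at that dose was smaller, at -0.17 (limma adjusted p = 0.040). The call at 0.5 nM was lost in 14 of 24 alternatives (adjusted p up to 0.31), the call at 5 nM in 3 of 24 (without DMSO replicate 1, DMSO replicate 2 or 5 nM replicate 1, adjusted p up to 0.079), and those at 50 and 500 nM in 0 of 24. No step between neighbouring doses passed the test, with steps of -0.03, -0.06 and 0.00 from 0.5 to 5, 5 to 50 and 50 to 500 nM. The step from 0.5 to 5 nM was -0.14 (limma adjusted p = 0.35) without replicate 2 of the 0.5 nM group.

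B4GALNT3 was lower at the lowest doses and fell further at the highest dose. The gene lies on the plus strand of chr12:459939-563509 and has 20 exons. DMSO libraries held 307, 273 and 271 normalized counts, the 0.5 nM libraries 175, 214 and 199, and the 5 nM libraries 202, 209 and 231. The 50 nM libraries held 210, 238 and 233 and the 500 nM libraries 129, 155 and 147. All treated libraries were below all DMSO libraries, and the 500 nM libraries were below all others. The fall was 0.53 at 0.5 nM (SE 0.10, limma adjusted p = 0.012), 0.40 at 5 nM (limma adjusted p = 0.036) and 0.98 at 500 nM (SE 0.10, limma adjusted p = 6.9e-07). At 50 nM the difference was -0.32 with a 95% interval of -0.53 to -0.12, which did not pass after adjustment (limma adjusted p = 0.061). Without replicate 2 of the 0.5 nM group the difference at 0.5 nM was -0.60 (limma adjusted p = 0.0078). Over 24 alternatives the call was lost in 4 at 0.5 nM (adjusted p up to 0.11), in 6 at 5 nM (up to 0.19) and in 0 at 500 nM. The step from 50 to 500 nM was -0.66 (SE 0.10, limma adjusted p = 7.4e-04), against 0.13 from 0.5 to 5 nM and 0.08 from 5 to 50 nM, which did not pass (adjusted p = 0.76 and 0.73). The step from 0.5 to 5 nM was 0.19 (limma adjusted p = 0.90) without replicate 2 of the 0.5 nM group. B4GALNT3 was the only one of the 9 genes whose step from 50 to 500 nM passed, where 2.28% of all genes changed and 1.8% fell.

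B4GALT3 fell by less at 50 and 500 nM, and B4GALT6 and B4GALT2 by less at 500 nM only. For B4GALT3 (chr1:161171310-161177968, minus strand, 8 exons) the DMSO libraries held 808, 847 and 857 normalized counts, the 50 nM libraries 731, 693 and 667, and the 500 nM libraries 678, 712 and 683. No library at 50 or 500 nM reached the lowest DMSO library. The fall was 0.27 at 50 nM (limma adjusted p = 0.023, lost in 4 of 24 alternatives) and 0.28 at 500 nM (limma adjusted p = 0.0073, lost in 0 of 24). At 0.5 nM the difference was 0.10 and rested on replicate 2 with 1022 normalized counts against 819 and 855, since it was -0.0004 without that library. The step from 5 to 50 nM was -0.24 (limma adjusted p = 0.048), a call lost in 15 of 24 alternatives. Of the exon bases of B4GALT3, 28.7% overlap the gene PPOX on the other strand, and whether the counting used strand is not stated, so reads of the 2 genes may have been mixed. PPOX itself did not pass the test at any dose, with differences of 0.27, 0.20, 0.07 and 0.05 in order of dose.

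B4GALT6 (chr18:31622246-31685836, minus strand, 9 exons) shares the lactosylceramide reaction with B4GALT5 and overlapped DMSO at the doses where B4GALT5 was already lower. DMSO libraries held 383, 427 and 377 normalized counts, the 0.5 nM libraries 420, 415 and 431, the 5 nM libraries 421, 422 and 389, the 50 nM libraries 334, 336 and 372 and the 500 nM libraries 324, 368 and 315. The 50 and 500 nM libraries lay below all DMSO libraries and the lower doses overlapped them. The fall at 500 nM was 0.24 (SE 0.07, limma adjusted p = 0.031), lost in 6 of 24 alternatives, DESeq2 among them. The difference at 50 nM was -0.19 (95% interval -0.34 to -0.03, limma adjusted p = 0.18). B4GALT2 (chr1:43978943-43991170, plus strand, 7 exons) held 957, 940 and 873 normalized counts in DMSO and 832, 840 and 809 at 500 nM, with no overlap. Its fall of 0.16 at 500 nM lay at the threshold (SE 0.05, limma adjusted p = 0.0485) and was lost in 12 of 24 alternatives, DESeq2 among them. At the other 3 doses B4GALT2 differed from DMSO by 0.09, 0.06 and -0.05, in order of dose, and did not pass.

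B4GALT4, B4GALNT1 and B4GALNT4 had fewer reads and wider intervals. B4GALT4 (chr3:119211732-119240946, minus strand) had means of 162 ± 10.4 in DMSO, 136 ± 7.71 at 50 nM and 145 ± 5.39 normalized counts at 500 nM. Its difference was -0.25 at 50 nM (95% interval -0.47 to -0.02, limma adjusted p = 0.23) and -0.16 at 500 nM (95% interval -0.38 to 0.07, limma adjusted p = 0.36). B4GALNT4 (chr11:369499-382117, plus strand) held 63.4, 66.8 and 59.9 normalized counts in DMSO and 51.0, 49.6 and 51.2 at 500 nM. Those groups did not overlap and had 49 to 66 reads a library. The difference of -0.32 had a 95% interval of -0.63 to -0.004, just below 0, and did not pass after adjustment (limma adjusted p = 0.16). B4GALNT1 (chr12:57623409-57633239, minus strand) was the only one of the 9 genes with a higher mean than DMSO at 500 nM, at 76.7 ± 9.15 against 70.0 ± 14.6 normalized counts, and the difference of 0.14 had a 95% interval of -0.17 to 0.45 (limma adjusted p = 0.58). SLC26A10P and an unnamed gene on the other strand overlap 27.1% of the exon bases of B4GALNT1, so its reads are uncertain in the same way.

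**Figure D2:**
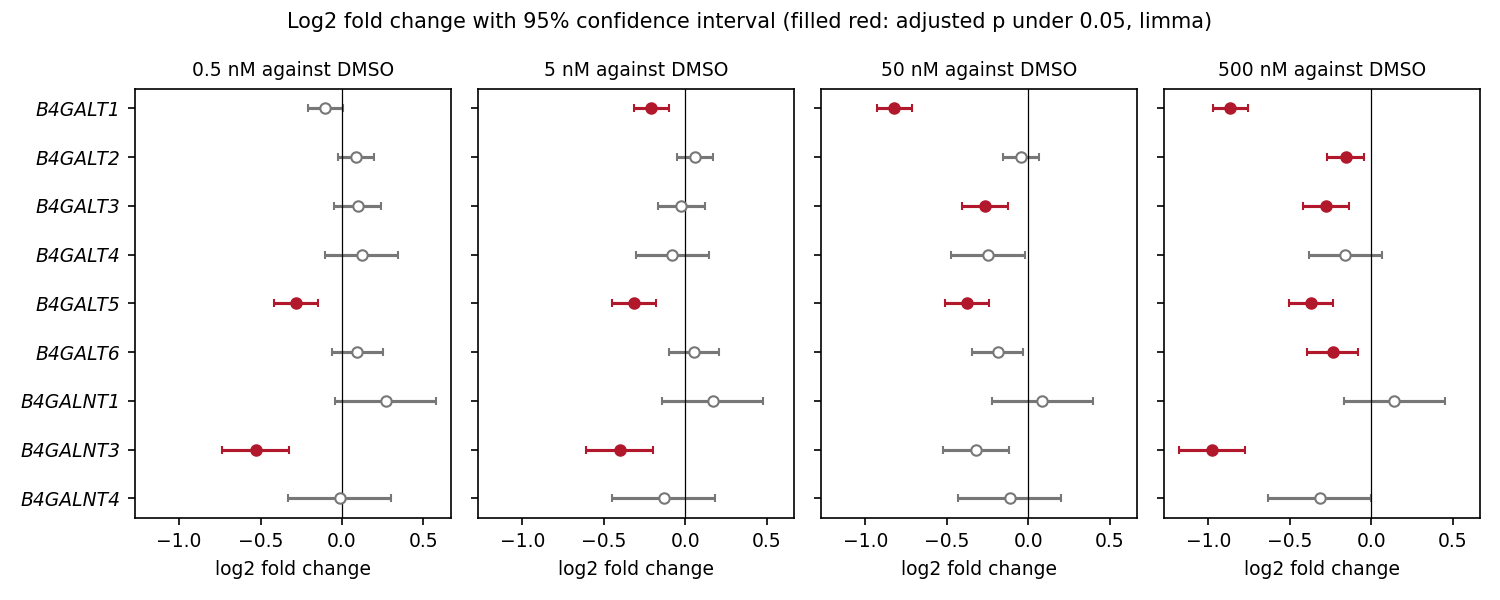
Log2 fold change of each gene against DMSO (horizontal axes) at 4 doses (panels), with 95% confidence intervals from limma and filled red points for an adjusted p under 0.05. The filled points number 2, 3, 3 and 6 of 9 in order of dose, all to the left of 0, with B4GALT1 at -0.82 and -0.87 in the last 2 panels and B4GALNT3 at -0.98 at 500 nM.

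Counted over the 9 genes, 2 fell at 0.5 nM (B4GALT5 and B4GALNT3), where 1.17% of all genes tested changed and 0.922% fell. At 5 nM 3 fell (B4GALT1, B4GALT5 and B4GALNT3), where 2.18% of all genes changed and 1.71% fell. With 1 library left out, 0 of the 9 passed by limma at either of these doses without DMSO replicate 1 or DMSO replicate 2, nor at 0.5 nM without 0.5 nM replicate 1, nor at 5 nM without 5 nM replicate 1. The genes that passed over the whole table then went from 159 to between 19 and 88 at 0.5 nM and from 295 to between 113 and 141 at 5 nM. At 50 nM 3 fell (B4GALT1, B4GALT3 and B4GALT5), against 6.0% changed and 3.71% lower among all genes. At 500 nM 6 fell (B4GALT1, B4GALT2, B4GALT3, B4GALT5, B4GALT6 and B4GALNT3), against 17.8% changed and 10.1% lower. Of these, B4GALT2 and B4GALT6 did not pass by DESeq2. None of the 9 rose at any dose by limma, while 0.251%, 0.465%, 2.29% and 7.69% of all genes rose in order of dose. The median log2 difference of the 9 genes was 0.09, -0.08, -0.25 and -0.28 in order of dose, and that of all genes tested lay between -0.01 and 0.00. At 0.5 nM the median of the 9 was -0.0004 without replicate 2 of that group. These 4 comparisons share the 3 DMSO libraries and are not independent of each other. All libraries of a dose lay below all DMSO libraries for 2, 3, 6 and 8 of the 9 genes in order of dose, and for 10.7%, 12.7%, 13.2% and 19.6% of all genes tested.

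The trend over the 5 groups, fitted as a slope on dose rank, was downward and passed for the same 6 genes that fell at 500 nM, where 17.6% of all genes passed and 9.33% fell. B4GALT1 fell by 0.25 per rank on the log2 scale (SE 0.02, limma adjusted p = 2.4e-07), B4GALNT3 by 0.17 (0.0024), B4GALT3 by 0.09 (0.0016) and B4GALT5 by 0.08 (0.0024, all limma adjusted p). Over the 12 treated libraries alone the slope did not pass for B4GALT5, at -0.03 (limma adjusted p = 0.31), or for B4GALNT3, at -0.13 (limma adjusted p = 0.13). The slope call of B4GALT2 was lost in 10 of the 24 alternatives (adjusted p up to 0.14), the replicate block among them. For B4GALT1, B4GALT3 and B4GALT6 the call did not change in any of the 24 alternatives. Between neighbouring doses, 0 of the 9 genes passed from 0.5 to 5 nM by limma, where 0.118% of all genes did, and 0 had an unadjusted p under 0.05 or passed by edgeR or DESeq2. From 5 to 50 nM 2 fell (B4GALT1 and B4GALT3), against 5.01% of all genes changed and 2.39% lower.

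The sizes of the falls and the doses at which they passed were not the same for all genes, but differences between genes were not tested by limma. The makeup of the galactosyltransferase transcripts in these libraries also differed between the groups. The summed level of B4GALT1 to B4GALT6 per kb was 2598 ± 66.4 normalized counts per kb in DMSO, 2461 ± 116 at 0.5 nM, 2337 ± 42.3 at 5 nM, 1995 ± 14.1 at 50 nM and 1952 ± 24.4 at 500 nM. At 0.5 nM the summed level was 2508 without replicate 2 of that group. B4GALT1 made up 24.9% ± 0.484 of the summed level in DMSO, 24.0% ± 0.305 at 5 nM, 18.3% ± 0.280 at 50 nM and 18.1% ± 0.356 at 500 nM. B4GALT5 made up 36.2% ± 0.367 in DMSO, 32.3% ± 0.865 at 5 nM and 37.2% ± 0.806 at 500 nM, and the share of B4GALT2 was 16.2% ± 0.481 in DMSO and 19.3% ± 0.142 at 500 nM, although its own level was lower there. With the length of all exons in place of the main transcript, the share of B4GALT1 went from 27.9% in DMSO to 20.9% at 500 nM and that of B4GALT2 from 8.54% to 10.5%. For both genes at 500 nM, the size of the shares thus depended on the length used and the direction did not.

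**Figure D3:**
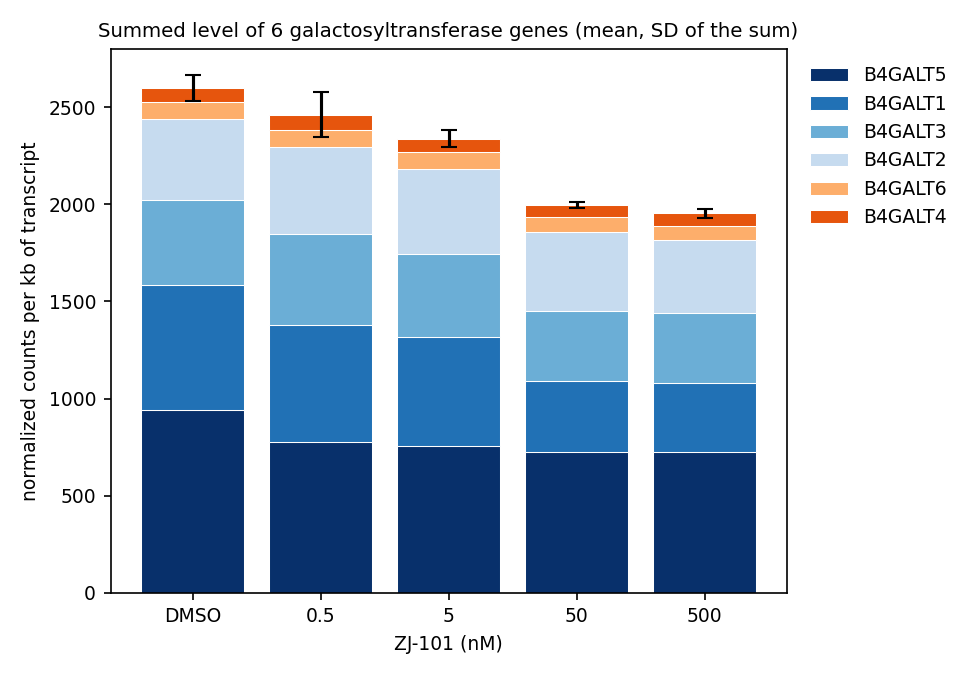
Mean level of the B4GALT genes (stacked bars from 0, in normalized counts per kb of main transcript) by ZJ-101 dose in nM, with error bars for the SD of the sum over 3 libraries. The stack falls from 2598 in DMSO to 1952 at 500 nM, with the B4GALT1 and B4GALT5 segments giving up most of the height.

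Ratios within a library, which do not depend on its size factor, were also compared with DMSO. The log2 ratio of B4GALT1 to B4GALT5 normalized counts was -0.72 ± 0.04 in DMSO, -0.54 ± 0.11 at 0.5 nM, -0.61 ± 0.06 at 5 nM, -1.17 ± 0.04 at 50 nM and -1.21 ± 0.06 at 500 nM. Its mean was thus above DMSO at the 2 lower doses and below DMSO at the 2 higher ones. Replicate 2 of the 0.5 nM group had the highest ratio, -0.42, and without it the mean there was -0.60, a difference from DMSO of 0.12 in place of 0.18. The ratio of B4GALT5 to B4GALT6, the enzymes of lactosylceramide, was 3.49 ± 0.05 in DMSO, 3.11 ± 0.17 at 0.5 nM, 3.11 ± 0.06 at 5 nM, 3.30 ± 0.05 at 50 nM and 3.35 ± 0.13 at 500 nM. Of 16 comparisons of ratios with DMSO, each of these except B4GALT5 to B4GALT6 at 500 nM (p = 0.2) gave p = 0.1 in an exact two-sided permutation test of 3 against 3, the smallest p it allows, and an adjusted p of 0.11, so no ratio could pass the threshold.

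The genes whose levels went most like B4GALT1 over the 15 libraries were not galactosyltransferases. By Pearson's r of the log2 values they were CHPF2 (r = 0.992), a chondroitin-chain enzyme, CALU (0.992), a calcium-binding protein of the secretory pathway, TPBG (0.990), a cell-surface glycoprotein, OLFML2A (0.989), a secreted matrix protein, and NFE2L1 (0.989), a transcription factor held in the ER membrane. All 5 fell from 5 to 50 nM by limma, with log2 differences of -0.89, -0.57, -0.64, -1.23 and -1.14 in that order (adjusted p of 6.4e-06 or less), and none passed from 50 to 500 nM. Among the 9 genes the r with B4GALT1 was highest for B4GALT6 (0.84) and B4GALT3 (0.83), 0.68 for B4GALT5, 0.59 for B4GALNT3 and lowest for B4GALNT1 (0.06). The 15 points share 5 group levels and the genes were picked for their likeness over the same libraries. A fall at the step where B4GALT1 fell was therefore built into the pick, and these r and p-values are descriptions.

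The other genes of the pathway were taken from 9 lists of its donors, acceptors, cofactors and products, with 78 genes tested. At 500 nM 27 of them fell and 2 rose, with a median log2 difference of -0.16, where 10.1% of all genes fell and 7.69% rose. At 50 nM 16 fell and 1 rose with a median of -0.10, where 3.71% of all genes fell and 2.29% rose. Of the genes that supply the sugar donor, 2 of 10 fell at 500 nM, PGM1, which interconverts glucose phosphates (-0.22, limma adjusted p = 0.0011), and UGP2, which makes UDP-glucose (-0.20, limma adjusted p = 0.020), and the median was -0.04. Of the 6 genes for manganese and pH of the Golgi, which these manganese-dependent enzymes need, the manganese pump ATP2C1 rose by 0.17 (limma adjusted p = 0.017) and TMEM165 fell by 0.17 at 500 nM (limma adjusted p = 0.0076). TMEM165, a Golgi manganese transporter, had its largest difference at 5 nM, at -0.41 (limma adjusted p = 2.4e-05), and rose again by 0.21 from 5 to 50 nM (limma adjusted p = 0.0035).

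Enzymes that build the GlcNAc acceptors of galactose had 7 of 15 genes lower and 0 higher at 500 nM, with a median of -0.31. For this list and those that follow, the share over all genes at 500 nM is again 10.1% lower and 7.69% higher. The largest falls were those of B3GNT9, of the GlcNAc-transferase family that extends LacNAc (-0.82, limma adjusted p = 2.4e-05), and B3GNT8, which starts poly-LacNAc on branched N-glycans (-0.56, limma adjusted p = 0.031). Of the 8 tested genes that cap or sulfate the product, 2 fell, ST6GAL1, the alpha-2,6-sialyltransferase of LacNAc (-0.63, limma adjusted p = 2.2e-04), and CHST2, a GlcNAc sulfotransferase (-0.25, limma adjusted p = 0.040). Glycosphingolipid enzymes around lactosylceramide had 5 of 7 genes lower and 0 higher, led by A4GALT, the globotriaosylceramide synthase that uses lactosylceramide (-0.64, limma adjusted p = 5.2e-06), and UGT8, the galactosylceramide synthase (-0.64, limma adjusted p = 5.2e-07). Both fell from 5 to 50 nM, by 0.36 and 0.35, as B4GALT1 did and B4GALT5 did not, but the differences between genes were not tested. UGT8 was already lower at 5 nM (-0.25, limma adjusted p = 0.039). UGCG, another gene of this list, was lower at 0.5 and 5 nM and rose from 5 to 50 nM by limma. Its call at 0.5 nM is not shown without replicate 2 of that group. At 500 nM its difference from DMSO was 0.13, which did not pass (limma adjusted p = 0.058).

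Enzymes that remove beta-linked galactose or GalNAc had 4 of 7 genes lower at 500 nM, among them the lysosomal beta-galactosidase GLB1 (-0.54, limma adjusted p = 1.7e-06) and the galactosylceramidase GALC (-0.41, limma adjusted p = 1.0e-04). Of 8 other galactosyl- and GalNAc-transferases C1GALT1, the core 1 O-glycan galactosyltransferase, fell by 0.29 (limma adjusted p = 2.2e-04) and CSGALNACT2, a chondroitin GalNAc-transferase, rose by 0.23 (limma adjusted p = 6.1e-04). Of 13 genes that hold or recycle Golgi enzymes 3 fell, with TMED9, a cargo receptor of the early secretory pathway, at -0.77 (limma adjusted p = 1.8e-09) and COG6, a subunit of the Golgi tethering complex, at -0.31 (limma adjusted p = 0.011), and the list median was -0.06. Of 4 galectin-related genes tested, LGALS3BP, a secreted galectin-binding glycoprotein, fell by 0.50 (limma adjusted p = 2.3e-07), with a difference of -0.41 from 50 to 500 nM (limma adjusted p = 4.3e-05), and LGALS8, a galectin, fell by 0.20 (limma adjusted p = 0.010).

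**Figure D4:**
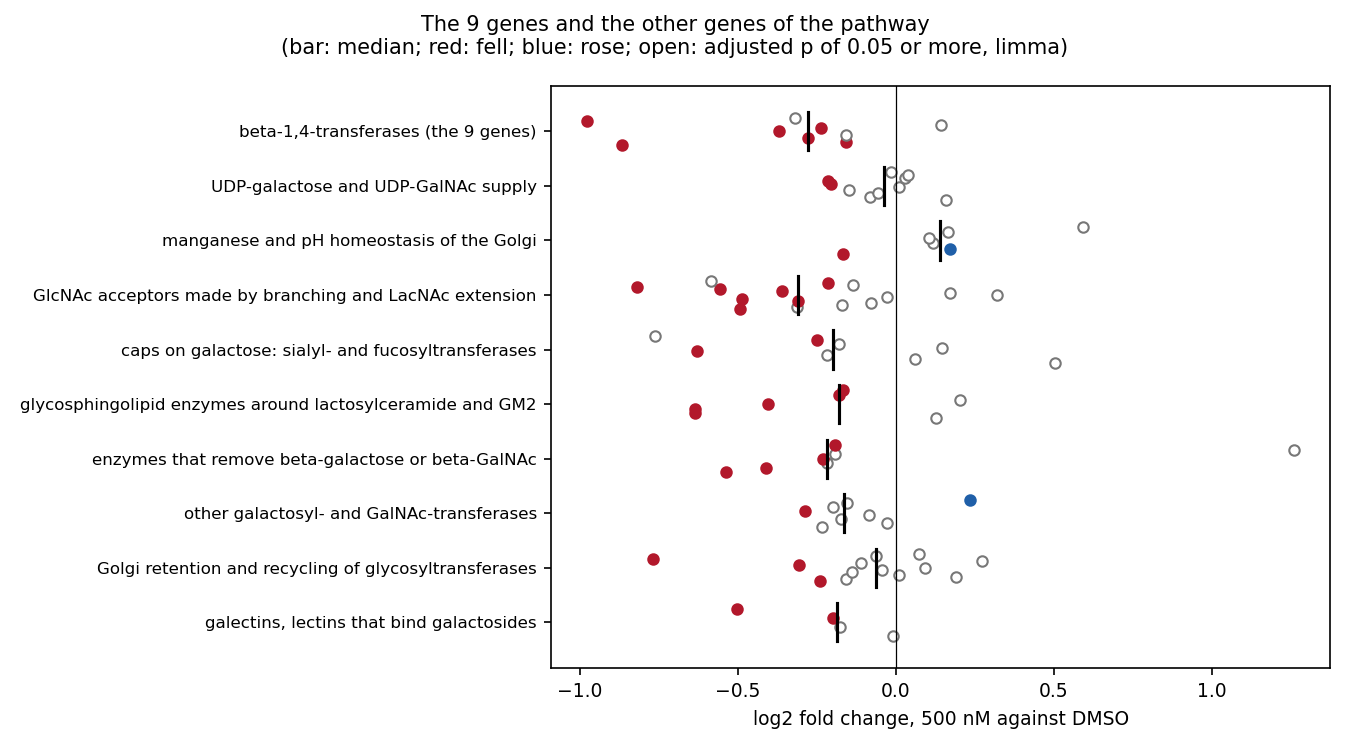
Log2 fold change at 500 nM against DMSO (horizontal axis) for the 9 genes and for the tested genes of 9 lists (rows), with red for genes that fell, blue for those that rose, open circles for the rest and a black bar for the median of each row. The median is -0.28 for the 9 genes, -0.31 for the GlcNAc acceptor enzymes and -0.04 for the donor supply genes.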

How the data were processed

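MDA-MB-231 RNA from 15 libraries (3 per group) was measured. The deposited values are normalized counts (a signal per gene): the authors aligned 150 bp paired poly-A reads to hg38 with HISAT2, counted them with HTSeq and divided each library by its DESeq2 size factor (0.916 to 1.13). Versions and strandedness were not given in the sources used here. A line holding no gene was dropped. Reads recovered from the smallest step came out whole for 100.0% of values (tolerance 0.001), with 12415519 to 15284762 reads per library. Within groups, chi-square per degree of freedom was 2.04 to 16.5, where sampling noise gives 1.

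limma 3.58.1 (R 4.3.3, variance trend) was run on log2(normalized count + 1) for genes with a mean of at least 10, with all groups in 1 fit of 10 residual degrees of freedom, Benjamini-Hochberg adjustment over 13561 genes and a threshold of 0.05. A second fit used dose rank. It was tested on simulated data. Alternatives were edgeR 4.0.16 and DESeq2 1.42.0 on recovered reads, TMM scaling, other filters and pseudocounts, only the groups compared, a replicate block and each library left out. The length of all exons was chosen after seeing the data. Annotation was GENCODE 44 and promoters were from RefSeq (GRCh38.p14).

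The text names all 9 members, up to 2 of the largest rises and falls per list at 500 nM among genes that passed, and the 5 genes most like B4GALT1. PPOX was added for its overlap and UGCG for its direction, after their values were seen. Members and lists were chosen with earlier results of these data known.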

Additional observations from a re-analysis of the deposited data

How the results depend on the processing

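The tests of the 9 genes, their counts and the counts over all genes and over the lists at 500 nM were recomputed under 24 alternatives. The correlations, the list medians and the counts at 50 nM were not, and the shares, sums and ratios were recomputed only with another gene length or without replicate 2 of the 0.5 nM group. The falls of B4GALT1, B4GALT3 and B4GALT5 at 500 nM, B4GALT1 and B4GALT5 at 50 nM, B4GALNT3 at 500 nM, B4GALT1 from 5 to 50 nM and B4GALNT3 from 50 to 500 nM passed under all of them. The number of the 9 genes that passed became 1 at 0.5 nM, 1 at 5 nM and 1 from 5 to 50 nM with no filter on low values, 1 from 5 to 50 nM with TMM scaling and with edgeR, and 0 at 0.5 nM with only the groups compared. With 1 library left out it ranged from 0 to 2 at 0.5 nM, 0 to 3 at 5 nM, 2 to 4 at 50 nM, 4 to 6 at 500 nM, 1 to 3 from 5 to 50 nM and 5 to 7 for the slope. With DESeq2, B4GALT2 and B4GALT6 did not pass at 500 nM. B4GALNT3 at 50 nM passed without replicate 2 of the 0.5 nM group and with only the groups compared (adjusted p down to 0.032). Over all genes, 159 passed at 0.5 nM and 295 at 5 nM, against 21 and 846 with only the groups compared and 19 to 391 and 113 to 623 with 1 library left out. The 16 that passed from 0.5 to 5 nM became 4 with only the groups compared, 25 without replicate 2 of the 0.5 nM group and 29 with DESeq2. At 0.5 nM 125 genes were lower, against 78 with no filter on low values. Among the lists at 500 nM, the capping genes lower went from 2 to 1 with no filter and the other transferases lower from 1 to 2 with only the groups compared, where 1 more gene was also higher in 5 lists. The glycosphingolipid genes higher went from 0 to 1 with DESeq2 and with a filter at a mean of at least 50. The donor supply genes higher went from 0 to 1 with that filter and with the replicate block. No pairing of the samples by replicate number was seen. Same-numbered libraries of 2 groups correlated at -0.085 to 0.096 in their deviations from the group means. Of 30 pairs 0 were over 0.1, which cannot exclude a weak pairing. With the replicate number as a block, 2, 3, 3 and 5 of the 9 genes passed in order of dose. No called value changed sign. Uncalled values near 0 did, namely B4GALNT4 at 0.5 nM with edgeR (0.013) and DESeq2 (0.0060), B4GALT5 from 50 to 500 nM with edgeR (-0.00013) and the slope of B4GALNT1 over treated libraries (-0.046). With 1 library left out, ranges that crossed 0 were, at 0.5 nM, -0.15 to 0.16 for B4GALNT4 and -0.00042 to 0.16 for B4GALT3, at 5 nM -0.13 to 0.025 for B4GALT4, and at 50 nM -0.028 to 0.25 for B4GALNT1. For the steps they were, from 0.5 to 5 nM, -0.14 to 0.039 for B4GALT5, -0.29 to 0.021 for B4GALNT4 and -0.056 to 0.017 for B4GALT2, from 5 to 50 nM -0.033 to 0.063 for B4GALNT4, from 50 to 500 nM -0.0089 to 0.023 for B4GALT5, -0.043 to 0.023 for B4GALT3 and -0.020 to 0.15 for B4GALNT1, and -0.018 to 0.027 for the slope of B4GALNT1. The cause of these changes was not tested. Genes with under 100 reads a library, B4GALNT1 and B4GALNT4, are the least precise.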
